A study of Mus musculus with 16 samples.

Results

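The genes described here encode the subunits of the proteasome with their activators, inhibitor and assembly chaperones, measured in mouse hamstring muscle. They were chosen by gene symbol alone, as every probe whose symbol starts with Psma, Psmb, Psmc, Psmd, Psme, Psmf or Psmg followed by a number. The rule found 64 probes of 43 genes among the 25697 probes and 18097 named genes of the array. Of these, 58 probes of 40 genes were detected on enough arrays to be tested. The only probes of Psma1, Psma3 and Psma6 were at background, and so was 1 of several probes of each of Psmb2, Psmd5 and Psmd11.

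The proteasome is the protease that degrades proteins tagged with ubiquitin, and in skeletal muscle it removes contractile proteins when a muscle wastes. Its 20S core is a barrel of alpha rings (Psma genes), which gate the entrance, around beta rings (Psmb genes), of which Psmb5, Psmb6 and Psmb7 encode the catalytic sites. The 19S cap binds the ubiquitin chain, unfolds the substrate with a ring of ATPases (Psmc genes) and carries further non-ATPase subunits (Psmd genes). In leukocytes and in cells exposed to interferon gamma, Psmb8, Psmb9 and Psmb10 replace the constitutive catalytic subunits to form the immunoproteasome, which supplies peptides for antigen presentation.

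Muscle RNA was hybridised to an Illumina expression BeadChip, 1 array per sample, 2 days after surgery in female mice. The 4 groups were Sham+Saline (sham surgery and saline injected into the muscle), SCI+Saline (spinal cord injury in the thoracic spine and saline), Sham+CDTX (sham surgery and cardiotoxin, a venom toxin that destroys muscle fibres) and SCI+CDTX (both injuries). Strain and age were not given in the sources used here, and all mice had surgery and an injection. The study asked which genes accompany neurogenic heterotopic ossification, bone that forms in injured muscle after spinal cord injury and, per the series text, arises only when both injuries are combined. Each group had 4 arrays, but the labels state that SCI+CDTX replicate 2 was left out of the authors' final analysis, so 15 arrays entered the comparisons below.

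Whole arrays differed in ways that touch these genes. The mean raw intensity was 230 to 277 in Sham+Saline and 320 to 373 on the other arrays, and 11114 to 13694 probes were detected per array. All SCI arrays were on 1 slide and all sham arrays on the other, so a difference between surgeries cannot be told apart from a difference between slides, whereas each cardiotoxin comparison lies within a slide. The muscle was identified by its fibre genes, of which 10 of 10 were detected, with a summed level of 112000 to 138000 over the 4 groups. Probes of the same gene disagreed in a shared way in the Sham+CDTX arrays: a score of these disagreements over 2782 genes was 0.35 to 0.39 there, 0.28 in the omitted SCI+CDTX replicate 2 and -0.27 to -0.07 in the other 11 arrays. The core and cap are therefore compared with Sham+CDTX last, and most effects that use Sham+CDTX are given with a value from a fit of all 16 arrays that holds the score as a covariate. Within groups the score varied most in SCI+CDTX, where replicate 2 was at 0.28 and the others at -0.12 to -0.07. Values with the score therefore lean largely on that 1 array, which the authors left out, and are no independent check.

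Levels are log2 normalised intensities, and a probe was called when its Benjamini-Hochberg adjusted p from limma, over all 14763 detected probes, was under 0.05. Where a gene had several probes the brightest stands for it. A probe's level is not comparable with that of another probe, so only differences between groups are described. In whole muscle, fewer cells of a type and less RNA per cell cannot be told apart.

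The 20S core and the 19S cap were higher in SCI+Saline than in Sham+Saline muscle. All 27 detected genes of these particles rose: 4 of 4 alpha ring, 7 of 7 constitutive beta ring, 6 of 6 ATPase and 10 of 10 non-ATPase genes, with log2 fold changes from 0.36 to 1.95 and a median of 1.22. Over all proteasome probes, 41 of 58 (70.7%) were called higher, where 14.8% of all probes tested were, and 1 of 58 (1.72%) lower, where 14.6% of all probes were. The median log2 fold change was 0.72 for the 58 probes and -0.01 for all probes. Across the other processing settings, 24 to 27 of the 27 genes were called higher and none lower.

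Markers of other cell types moved in the same comparison. With SCI in saline muscle, 2 of 6 pan-leukocyte, 2 of 7 macrophage and 1 of 5 neutrophil markers were called higher and none of these lower, 2 of 4 fibroblast and 2 of 3 endothelial markers were called lower, and 1 of 10 muscle fibre markers was lower. The shares of all probes were 14.8% higher and 14.6% lower. Cd68, a lysosomal protein of macrophages, rose by 1.82 on the log2 scale, and S100a8, a calcium-binding protein of neutrophils, by 4.74 (SE 1.17). The S100a8 groups overlapped, at 4.43 to 12.72 in Sham+Saline and 10.89 to 13.07 in SCI+Saline. Of the other detected neutrophil markers, S100a9 gave 1.52, Retnlg 0.31, Csf3r -0.13 and Mmp9 -0.86, and these were not called. The part of these cells in the proteasome values was not tested.

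**Figure D1:**
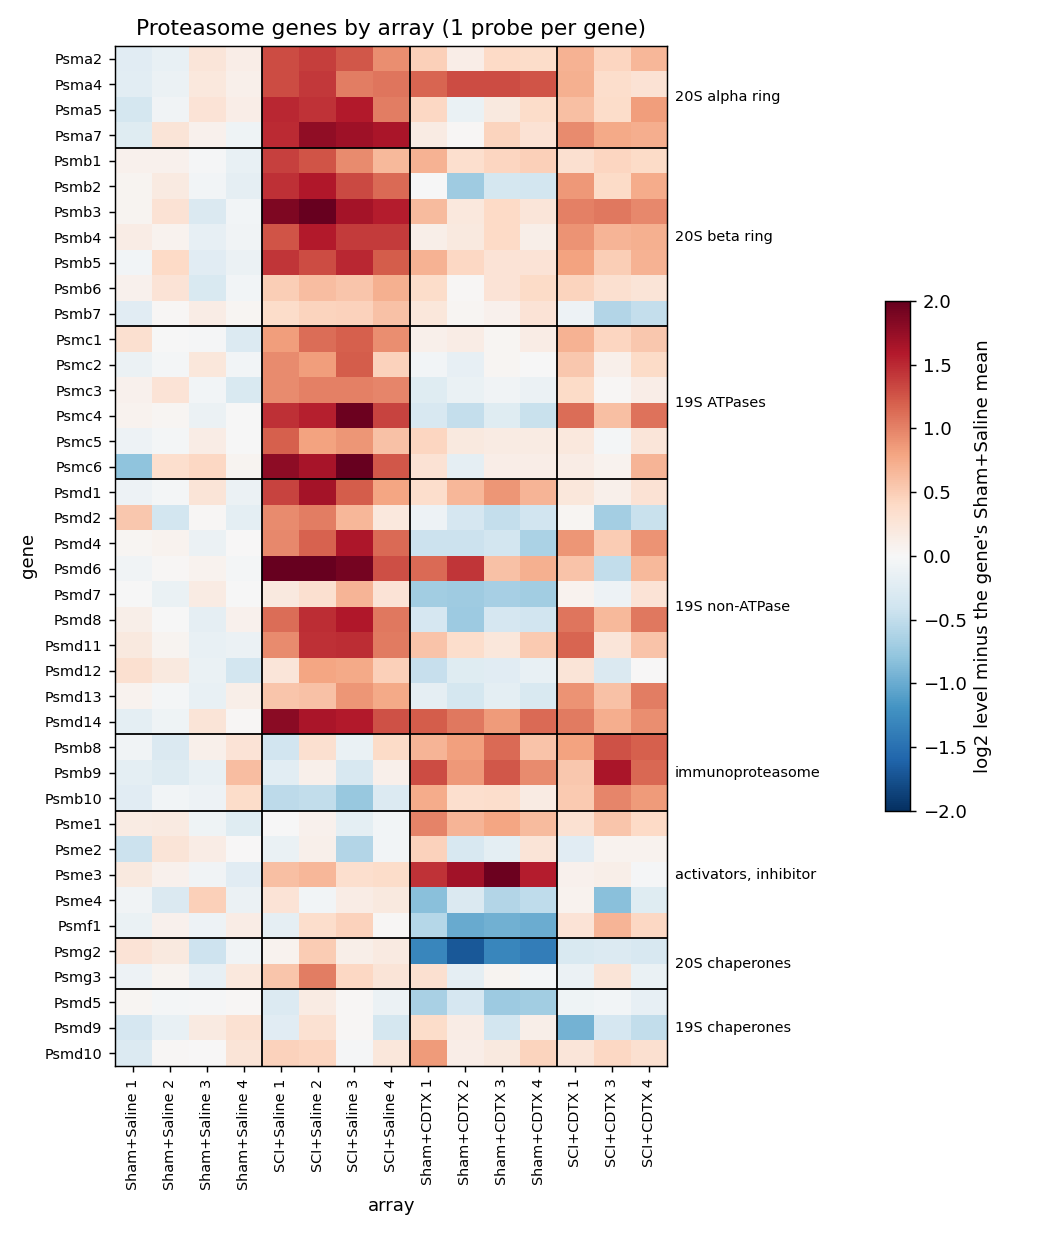
Level of 40 proteasome genes (rows, 1 probe per gene, grouped by role) on 15 arrays (columns), as the log2 level minus the mean of the gene's 4 Sham+Saline arrays; red is higher, blue lower, and the colour scale ends at 2 in each direction. The rows of the core and cap are red in the 4 SCI+Saline arrays, and the immunoproteasome rows are red in the cardiotoxin arrays.

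The array values show how evenly the core and cap moved. The median of the 27 genes, set against each gene's Sham+Saline mean, was 1.26, 1.38, 1.24 and 1.02 in the 4 SCI+Saline arrays, and -0.05 to 0.04 in the Sham+Saline arrays. It was 0.22, 0.03, 0.17 and 0.17 in Sham+CDTX, and 0.69, 0.36 and 0.66 in SCI+CDTX. Every SCI+Saline array thus stood above every array of the other groups, the SCI+CDTX arrays came next, and the Sham+CDTX arrays lay close to Sham+Saline.

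Among the core's catalytic subunits, Psmb5 (chromosome 14, band 14qC3), which carries the chymotrypsin-like site, was measured by a probe that starts with these 30 of its 50 bases, shown to identify the transcript read.
Psmb5: cgctaacatggtgtatcagtacaaaggcat
Its level was 9.64, 10.10, 9.48 and 9.59 in Sham+Saline and 11.13, 11.00, 11.21 and 10.92 in SCI+Saline. With cardiotoxin it was 10.39, 10.11, 9.97 and 9.98 in Sham+CDTX and 10.51, 10.19 and 10.39 in SCI+CDTX. All SCI+Saline arrays were above all others. The rise with SCI in saline muscle was 2.57-fold (log2 1.36, SE 0.15, limma adjusted p = 2.49e-06). Before any normalisation the same probe read 578.2 to 743.3 in Sham+Saline and 2190.7 to 2901.1 in SCI+Saline, while the mean of all probes was 230 to 277 and 321 to 335 on those arrays.

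Psmb6 is the caspase-like subunit. Its levels were 11.49, 11.68, 11.10 and 11.34 in Sham+Saline, 11.89, 12.02, 11.95 and 12.12 in SCI+Saline, 11.77, 11.42, 11.68 and 11.78 in Sham+CDTX, and 11.85, 11.72 and 11.66 in SCI+CDTX. The saline groups did not overlap, and the difference was 1.51-fold (log2 0.59, SE 0.14, limma adjusted p = 0.00368). For Psmb7, the trypsin-like subunit, the brightest probe read 11.54, 11.79, 11.91 and 11.80 in Sham+Saline, 12.13, 12.21, 12.22 and 12.35 in SCI+Saline, 11.98, 11.80, 11.85 and 12.03 in Sham+CDTX, and 11.66, 11.18 and 11.28 in SCI+CDTX. SCI+Saline was highest again, by 1.38-fold over Sham+Saline (log2 0.47, SE 0.14, limma adjusted p = 0.0141), and the call was lost without Sham+Saline replicate 1 (0.0503). The other probes of Psmb7 gave log2 fold changes of 0.62 and 1.24 in the same comparison, both called.

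The largest rises of this comparison were in Psmd6, Psmb3 and Psmc6. Psmd6, a lid subunit of the cap, read 6.94, 7.03, 7.08 and 6.97 in Sham+Saline and 9.48, 9.10, 8.92 and 8.30 in SCI+Saline. With cardiotoxin it read 8.13, 8.44, 7.59 and 7.72 in Sham+CDTX and 7.57, 6.52 and 7.66 in SCI+CDTX. The saline groups lay more than 1 log2 unit apart, a 3.85-fold difference (log2 1.95, SE 0.25, limma adjusted p = 1.46e-05), and its other probe gave 1.91. Psmb3, a structural beta ring subunit, was at 11.15, 11.39, 10.82 and 11.05 in Sham+Saline, 12.97, 13.13, 12.77 and 12.68 in SCI+Saline, 11.74, 11.32, 11.50 and 11.35 in Sham+CDTX, and 12.11, 12.15 and 12.06 in SCI+CDTX. Here the SCI+CDTX arrays stood between the saline groups, and SCI+Saline exceeded Sham+Saline 3.44-fold (log2 1.78, SE 0.15, limma adjusted p = 8.57e-08). Psmc6, an ATPase of the cap, was a dim probe at 4.59, 5.73, 5.81 and 5.45 in Sham+Saline, 7.18, 7.05, 7.51 and 6.63 in SCI+Saline, 5.68, 5.21, 5.52 and 5.53 in Sham+CDTX, and 5.55, 5.46 and 6.07 in SCI+CDTX. The SCI+Saline arrays alone were raised, 3.24-fold over Sham+Saline (log2 1.70, SE 0.24, limma adjusted p = 2.81e-05).

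The weakest calls of the 27 genes were in the cap. Psmd7 had an adjusted p of 0.0498 that rose above 0.05 when any of 12 of the 15 arrays was left out (highest 0.168), while its other probe rose by 0.57 on the log2 scale (limma adjusted p = 0.0145). The call of Psmd12 (log2 0.56) was lost without SCI+Saline replicate 2 or 3 or Sham+Saline replicate 3 or 4, with a highest adjusted p of 0.0737. That of Psmd2 (log2 0.71) was lost without SCI+Saline replicate 2 or Sham+Saline replicate 2, with a highest adjusted p of 0.0557. Their directions did not change in any of these fits.

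Cardiotoxin in mice with spinal cord injury went with lower core and cap levels. In SCI+CDTX against SCI+Saline, 23 of the 27 core and cap genes fell and none rose: 4 of 4 alpha ring, 6 of 7 beta ring, 6 of 6 ATPase and 7 of 10 non-ATPase genes. Their median log2 fold change was -0.68, with a range from -1.71 to 0.14. Over all proteasome probes, 37 of 58 (63.8%) were called lower, where 22.5% of all probes were, and 6 of 58 (10.3%) higher, where 20.4% of all probes were. This comparison shares its SCI+Saline arrays with the preceding one, so a high or low value in those 4 arrays enters both with opposite sign, and the fall is not independent of the rise.

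**Figure D2:**
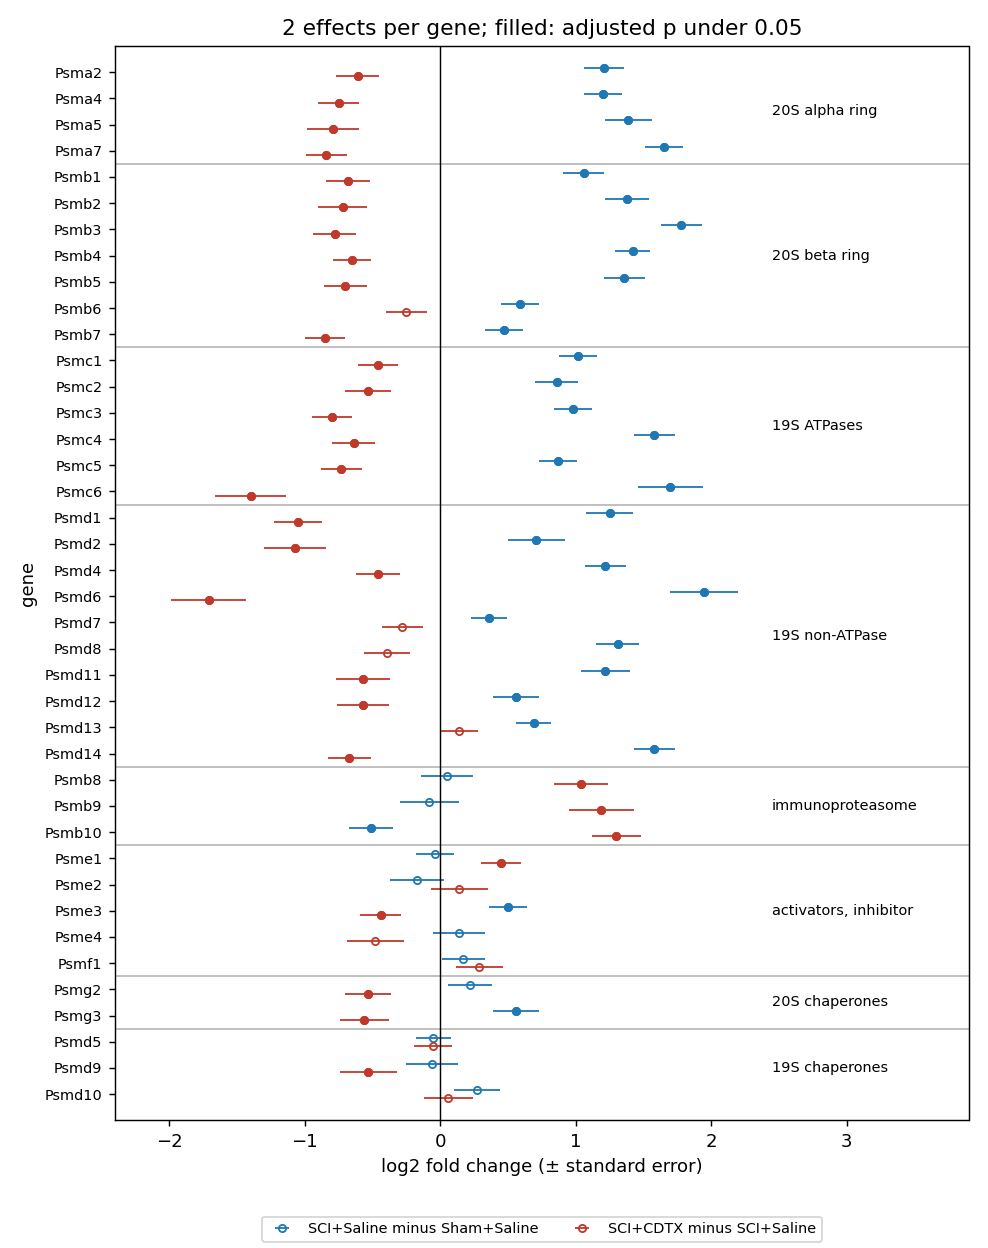
Log2 fold change of each of 40 proteasome genes with its standard error, for SCI+Saline minus Sham+Saline (blue) and SCI+CDTX minus SCI+Saline (red); filled points passed an adjusted p of 0.05. The 27 core and cap genes lie to the right in blue and, apart from Psmd13 at 0.14, to the left in red, whereas Psmb8, Psmb9 and Psmb10 lie to the right in red.

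Psmd6 and Psmc6 had the largest falls. Psmd6 was 3.26-fold lower in SCI+CDTX than in SCI+Saline (log2 -1.71, SE 0.28, limma adjusted p = 8.06e-05), and its groups did not overlap; with the omitted SCI+CDTX replicate 2 included, the value was -0.92 and the call was lost (limma adjusted p = 0.181). Psmc6 was 2.64-fold lower (log2 -1.40, SE 0.26, limma adjusted p = 0.000248). Psmd2, the large scaffold subunit at the base of the cap, came next. Its brightest probe was at 6.20, 5.29, 5.69 and 5.46 in Sham+Saline, 6.61, 6.69, 6.32 and 5.87 in SCI+Saline, 5.56, 5.32, 5.19 and 5.27 in Sham+CDTX, and 5.70, 4.98 and 5.22 in SCI+CDTX. All SCI+Saline arrays exceeded all SCI+CDTX arrays, by 2.10-fold on average (log2 -1.07, SE 0.23, limma adjusted p = 0.000923). Its other probe, which shares 42 bases with it and is no separate measurement, gave -0.89.

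Of the constitutive catalytic subunits, 2 of 3 were called lower. Psmb5 fell 1.63-fold (log2 -0.70, SE 0.16, limma adjusted p = 0.00203) and Psmb7 1.81-fold (log2 -0.85, SE 0.15, limma adjusted p = 0.000149), whereas Psmb6 had a log2 fold change of -0.25 (SE 0.15) that did not pass (limma adjusted p = 0.201). The 3 cap genes that did not pass were Psmd7 (-0.28), Psmd8 (-0.39) and Psmd13 (0.14). For Psmd7 the other probe was called lower (log2 -0.68, limma adjusted p = 0.00514). Some calls near the threshold rested on single arrays: without SCI+CDTX replicate 3 or SCI+Saline replicate 3 the calls of Psmc1, Psmc2, Psmd4, Psmd11 and Psmd12 were lost. Those of Psmd11 and Psmd12 were also lost without SCI+CDTX replicate 4 or SCI+Saline replicate 2, and that of Psmc1 without SCI+CDTX replicate 4. The highest adjusted p over all omissions was 0.0852 for Psmc1, 0.109 for Psmc2, 0.164 for Psmd4, 0.198 for Psmd11 and 0.127 for Psmd12.

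The omitted SCI+CDTX replicate 2 changed the size of this result. When it was included, 18 of the 27 core and cap genes were called lower with a median of -0.57, and none higher. The calls of Psma4, Psmd1, Psmd6, Psmd11, Psmd12 and Psmd14 were lost and that of Psmd8 was gained (log2 -0.46, limma adjusted p = 0.0339). Normalised with all 16 arrays, that array was below the SCI+Saline range in 13 of the 27 genes, within it in 9 and above it in 5. Among the highest was Psmd6, at 10.41 against 8.34 to 9.52 in SCI+Saline, and among the lowest Psmc3, an ATPase of the cap, at 10.30 against 11.26 to 11.32. Its pan-leukocyte marker sum was 8560 against 14000 to 21100 in the other SCI+CDTX arrays and 894 to 5330 in SCI+Saline.

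In the authors' deposited table of group means, which uses another normalisation, 22 of the 58 proteasome probes were lower in SCI+CDTX than in SCI+Saline and 7 were higher at their difference p under 0.05, where 6.47% of all probes were lower and 26.2% higher. In the authors' deposited table the falls of Psmc1, Psmd2, Psmd4, Psmd11, Psmd12 and Psmd14 kept their sign and did not pass. The deposited mean intensities of the alpha ring gene Psma2 were 3605.2 for Sham+Saline, 4250.1 for Sham+CDTX, 4848.8 for SCI+CDTX and 8557.9 for SCI+Saline in the authors' deposited table, the same order as in the levels used here.

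Immunoproteasome subunits were higher with cardiotoxin. In SCI+CDTX against SCI+Saline, where the core and cap fell, 3 of 3 rose (20.4% of all probes did), and in Sham+CDTX against Sham+Saline 2 of 3 did (23.1% of all probes). When the omitted SCI+CDTX replicate 2 was included, 4 of 58 proteasome probes (6.9%) were called higher with cardiotoxin in SCI mice, where 17% of all probes were. Without that array it was 6 of 58 (10.3%), where 20.4% of all probes were. These counts cover all proteasome probes and do not tell how many of the 3 immunoproteasome genes kept their call. With all 16 arrays and the score, 3 of 3 were called higher in sham mice too, at log2 1.66 for Psmb8, 2.41 for Psmb9 and 2.31 for Psmb10. These larger values lean on SCI+CDTX replicate 2, which had the 3 genes at saline levels, so they are not separate support for the rise. No thymoproteasome subunit (Psmb11) is among the probes found by the rule.

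Psmb8, the inducible counterpart of Psmb5, was read by a probe that starts with the following bases, printed for comparison with the Psmb5 probe above.
Psmb8: caagctgctttccaacatgatgctgcagta
It was at 5.33, 5.11, 5.50 and 5.67 in Sham+Saline and 5.02, 5.73, 5.27 and 5.78 in SCI+Saline. The cardiotoxin arrays were at 6.08, 6.22, 6.54 and 5.97 in Sham+CDTX and 6.20, 6.67 and 6.60 in SCI+CDTX. Every cardiotoxin array was above every saline array, and the surgeries overlapped within each injection. Cardiotoxin raised Psmb8 2.06-fold in SCI mice (log2 1.04, SE 0.20, limma adjusted p = 0.000429) and 1.74-fold in sham mice (log2 0.80, SE 0.19, limma adjusted p = 0.00153). The difference between these effects was 0.24 (SE 0.28) and did not pass (limma adjusted p = 0.587).

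Psmb9, the inducible counterpart of Psmb6, was at 6.70, 6.63, 6.74 and 7.51 in Sham+Saline, 6.69, 7.00, 6.58 and 7.00 in SCI+Saline, 8.20, 7.76, 8.13 and 7.84 in Sham+CDTX, and 7.44, 8.52 and 8.05 in SCI+CDTX. Sham+Saline replicate 4 was above the lowest SCI+CDTX array, but within each surgery the injections did not overlap. The rise was 2.28-fold in SCI mice (log2 1.19, SE 0.24, limma adjusted p = 0.000539) and 2.12-fold in sham mice (log2 1.09, SE 0.22, limma adjusted p = 0.000438).

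Psmb10, the inducible counterpart of Psmb7, was at 8.81, 8.98, 8.93 and 9.40 in Sham+Saline, 8.51, 8.53, 8.27 and 8.75 in SCI+Saline, 9.77, 9.36, 9.38 and 9.20 in Sham+CDTX, and 9.56, 10.00 and 9.88 in SCI+CDTX for its brightest probe. SCI+Saline was the lowest group, with no overlap with the others. The rise with cardiotoxin was 2.46-fold in SCI mice (log2 1.30, SE 0.18, limma adjusted p = 1.66e-05), against a log2 change of 0.40 in sham mice that did not pass (SE 0.16, limma adjusted p = 0.0522). The difference between these effects was 0.90 (SE 0.24, limma adjusted p = 0.0111). Its other probe rose in both, by 1.20 in SCI mice and 0.90 in sham mice, with a difference of 0.30 that did not pass (limma adjusted p = 0.454).

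In saline muscle, SCI did not raise any immunoproteasome gene past the threshold. The log2 fold changes were 0.05 for Psmb8 and -0.08 for Psmb9, and Psmb10 was the only proteasome gene called lower (log2 -0.51, SE 0.16, limma adjusted p = 0.0245). That call was lost without SCI+Saline replicate 3 or Sham+Saline replicate 4 (highest adjusted p 0.0906), and the other Psmb10 probe gave -0.21 (limma adjusted p = 0.434).

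**Figure D3:**
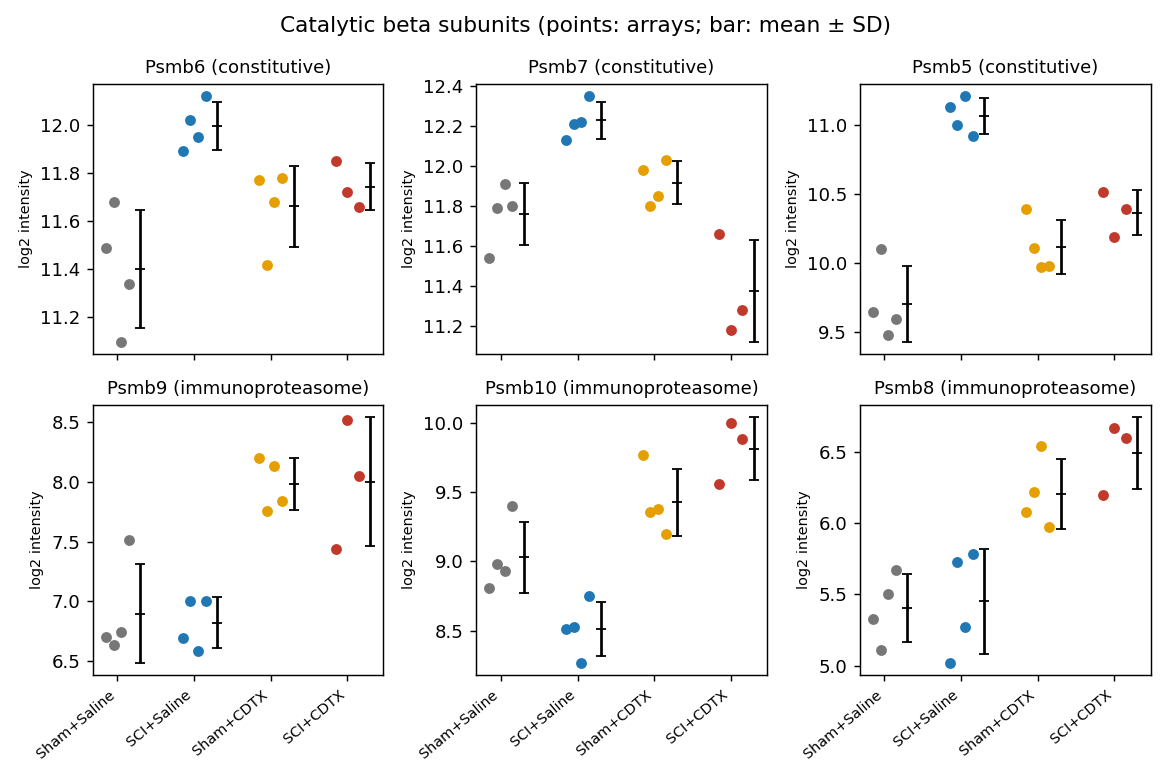
Level (log2 intensity) of the constitutive catalytic subunits (top row) and their inducible counterparts (bottom row) on each array, by group, with the group mean and SD beside the points; each panel has its own axis, which does not start at 0. Psmb5, Psmb6 and Psmb7 are highest in SCI+Saline, and Psmb8 and Psmb9 are high in both cardiotoxin groups.

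Leukocyte markers moved with the immunoproteasome genes. Of the pan-leukocyte markers 6 of 6 were called higher with cardiotoxin in both surgeries, and their summed level was 13800 to 20800 in SCI+CDTX and 14700 to 16700 in Sham+CDTX, against 872 to 5230 in SCI+Saline and 1100 to 3000 in Sham+Saline. Of the macrophage markers 7 of 7 detected were also higher in both, with sums of 12700 to 19100 and 15700 to 18400 against 836 to 4010 and 965 to 1990. Neutrophil markers gave 2 of 5 higher in both. Their sum was largest in SCI+Saline replicate 4 and Sham+Saline replicate 4 (12400 and 10700, normalised over 16 arrays). The latter was the Sham+Saline array with the highest Psmb9 (7.51). In SCI+Saline replicate 4 Psmb9 was 7.00, as it was in SCI+Saline replicate 2, where the neutrophil sum was 2270. T and NK cell markers were dim, with sums of 96.6 to 256 in all groups, and 4 of 5 were higher with cardiotoxin in SCI mice and 2 of 5 in sham mice. Fibroblast markers gave 2 of 4 and 4 of 4 higher. The shares of all probes called higher with cardiotoxin were 20.4% in SCI mice and 23.1% in sham mice. With all 16 arrays and the score, sham mice had 5 of 6 pan-leukocyte, 7 of 7 macrophage, 1 of 5 neutrophil, 2 of 5 T and NK cell and 0 of 4 fibroblast markers higher. In the omitted SCI+CDTX replicate 2, Psmb8 (5.59), Psmb9 (6.73) and Psmb10 (8.18) were at saline levels. Its leukocyte sum of 8560 was the lowest of the cardiotoxin arrays but above every saline array (894 to 5330). The same held for its macrophage sum, 8620 against 859 to 4100 in the saline arrays. The part of these cells in the immunoproteasome values was not tested.

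Genes with the pattern most like that of Psmb8 over the 15 arrays were Samsn1 (Pearson r = 0.956), Pira4 (0.956), Fermt3 (0.956), Cnr2 (0.952) and Napsa (0.951), out of 10951 genes compared. These are correlations over arrays of 4 groups and are given as a description. Within the roles, the median correlation between genes over the 15 arrays was 0.882 for the immunoproteasome, 0.879 for the ATPases, 0.822 for the beta ring, 0.785 for the alpha ring and 0.623 for the non-ATPase cap genes. It was -0.246 for the activators and inhibitor and -0.0911 for the cap chaperones, and 0.459 over all 40 genes.

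Genes of antigen processing and of the response to interferon gamma, none of them proteasome subunits, were compared as a related list. Of 16 detected, 13 were higher and none lower with cardiotoxin in SCI mice, and 11 were higher and 1 lower in sham mice, against 9 and none there with all 16 arrays and the score. The largest changes in the list were in Irf8, a transcription factor of myeloid cells (log2 1.42 in SCI mice and 2.56 in sham mice), Cd74, the invariant chain of MHC class II (1.72 and 2.43), B2m, the light chain of MHC class I (1.16 and 1.92), and H2-T23, a non-classical class I chain (1.35 and 1.42). With the score their values in sham mice were 1.91, 2.15, 1.45 and 2.31, in the same order, all called. Gbp3, a guanylate-binding protein, was lower with SCI in cardiotoxin muscle (log2 -1.81, limma adjusted p = 5.28e-07; -1.71 with the score). With SCI in saline muscle the list had 2 genes higher and 4 lower of 16, where 14.8% and 14.6% of all probes were.

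The activators of the core did not move as a group. Psme1 and Psme2 encode the heptameric activator that works with the immunoproteasome, Psme3 a nuclear activator, Psme4 a large monomeric activator, and Psmf1 an inhibitor. Over these 5 genes, cardiotoxin in SCI mice gave 1 higher and 1 lower, and SCI in saline muscle 1 higher and none lower. The shares of all probes were 20.4% higher and 22.5% lower in the first comparison, and 14.8% and 14.6% in the second.

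Psme1 was at 9.30, 9.31, 9.05 and 8.89 in Sham+Saline, 9.13, 9.22, 8.94 and 9.09 in SCI+Saline, 10.13, 9.81, 9.92 and 9.77 in Sham+CDTX, and 9.44, 9.69 and 9.53 in SCI+CDTX. Both cardiotoxin groups were above both saline groups. Its rise was 1.37-fold in SCI mice (log2 0.45, SE 0.15, limma adjusted p = 0.0184) and 1.71-fold in sham mice (log2 0.77, SE 0.14, limma adjusted p = 0.000129), and the first was lost without SCI+CDTX replicate 3 or SCI+Saline replicate 3 (highest adjusted p 0.0899). The rise in sham mice was 1.31 with the score. The other Psme1 probe rose by 0.74 and 0.56. Psme2, the partner of Psme1 whose gene lies 5912 bases from it, was at 6.67, 7.36, 7.24 and 7.11 in Sham+Saline, 6.96, 7.20, 6.51 and 7.04 in SCI+Saline, 7.55, 6.78, 6.90 and 7.36 in Sham+CDTX, and 6.87, 7.17 and 7.17 in SCI+CDTX. The groups overlapped in every comparison of Psme2, with log2 fold changes from -0.17 to 0.14 and none called. In the authors' deposited table, however, Psme2 was higher in SCI+CDTX (mean 141.7) than in SCI+Saline (88), at their difference p of 0.016.

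Psme3 was at 7.92, 7.81, 7.65 and 7.50 in Sham+Saline, 8.32, 8.39, 8.06 and 8.09 in SCI+Saline, 9.16, 9.40, 9.68 and 9.29 in Sham+CDTX, and 7.80, 7.84 and 7.69 in SCI+CDTX. Only Sham+CDTX was above 9 among the 15 arrays, and the omitted SCI+CDTX replicate 2 was at 9.23. SCI raised it in saline muscle (log2 0.50, SE 0.14, limma adjusted p = 0.0135), and cardiotoxin lowered it in SCI mice (log2 -0.44, SE 0.15, limma adjusted p = 0.0292). The latter call was lost without any 1 of 5 arrays (SCI+CDTX replicate 1, 3 or 4, SCI+Saline replicate 1 or 2; highest adjusted p 0.102). Psme4 was at 11.51, 11.29, 12.06 and 11.47 in Sham+Saline, 11.86, 11.53, 11.73 and 11.78 in SCI+Saline, 10.74, 11.29, 10.99 and 11.08 in Sham+CDTX, and 11.65, 10.74 and 11.34 in SCI+CDTX. Cardiotoxin gave a log2 change of -0.48 in SCI mice that did not pass (limma adjusted p = 0.0752) and lowered it in sham mice (log2 -0.56, limma adjusted p = 0.0228); without Sham+CDTX replicate 1 or Sham+Saline replicate 3 that call was lost (highest adjusted p 0.0935), and with the score it was -1.20 and did not pass (limma adjusted p = 0.084).

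Assembly chaperones help build the particles and are not part of them. By their brightest probes, both detected core chaperones were called lower with cardiotoxin in SCI mice (22.5% of all probes were), and 1 of 2 was called higher with SCI in saline muscle (14.8% of all probes were). Psmg2 had a log2 change of -0.53 with cardiotoxin in SCI mice (limma adjusted p = 0.0181; -0.71 for its other probe), a call lost without SCI+CDTX replicate 4 or SCI+Saline replicate 2 (highest adjusted p 0.0586). With SCI in saline muscle it had 0.22, not called, and 0.68 on its other probe, which was called (limma adjusted p = 0.00192). Psmg3 was higher with SCI in saline muscle (log2 0.56, limma adjusted p = 0.0172, lost without SCI+Saline replicate 2 at 0.0708) and lower with cardiotoxin in SCI mice (log2 -0.56, limma adjusted p = 0.0181, lost without SCI+CDTX replicate 1 or 4 or SCI+Saline replicate 2, highest 0.0799). None of the 3 cap chaperones Psmd5, Psmd9 and Psmd10 was called with SCI in saline muscle, where their brightest probes had log2 fold changes from -0.06 to 0.27. A second Psmd10 probe was called higher there (log2 0.51, limma adjusted p = 0.0107). With cardiotoxin in SCI mice 1 of the 3, Psmd9, was called lower (log2 -0.53, limma adjusted p = 0.0482), a call lost in 8 of the 15 fits that left out 1 array (highest adjusted p 0.243).

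Partners of the proteasome that do not match the rule were compared as a second list. Of 21 detected, 9 were higher and 2 lower with SCI in saline muscle, where 14.8% and 14.6% of all probes were. With cardiotoxin in SCI mice 2 were higher and 10 lower, where 20.4% and 22.5% of all probes were. The 5 with the largest changes in any comparison were Uchl5, Usp14, Nploc4, Rad23b and Nfe2l2. Usp14, a deubiquitinase of the cap, rose with SCI (log2 1.59) and fell with cardiotoxin in SCI mice (-1.0). Nploc4, a cofactor that delivers ubiquitinated proteins, gave 1.54 and -1.07, and Rad23b, a shuttle for ubiquitinated proteins, 0.71 and -0.78, all called. Nfe2l2, a transcription factor of the oxidative stress response, gave 1.34 and -0.57, also called, whereas Uchl5, another deubiquitinase of the cap, gave 0.26, not called, and -0.72. Nfe2l1, also in the list and detected on 15 arrays, gave -0.21 and -0.08, neither called.

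Promoter sequences were available from RefSeq (GRCm38.p6) for 37 of the 43 genes, as 40 promoters of 300 bases (250 before and 50 after the start), and were searched on both strands for 6 motifs. The antioxidant response element core, TGACNNNGC or TGAGNNNGC, which is bound by factors related to Nfe2l2, was in 40% of the proteasome promoters and 27.8% of all 32851 promoters; by gene, it was in 15 of 37 (40.5%) against 30.8% of all genes. Within the roles it was in 4 of 7 alpha ring, 3 of 4 constitutive beta ring, 2 of 5 ATPase and 3 of 9 non-ATPase cap genes, in 2 of 3 cap chaperones, 0 of 1 core chaperone and 1 of 5 activators and inhibitor, and in none of the 3 immunoproteasome genes. The non-ATPase cap genes, of which 10 of 10 rose with SCI in saline muscle, held it at 33.3%. The ETS core CCGGAAG was in 35% against 8.86%. By role it was in 6 of 9 non-ATPase cap, 3 of 5 ATPase, 1 of 7 alpha ring and 0 of 4 constitutive beta ring genes. It was also in 2 of 5 activators and inhibitor, 1 of 1 core chaperone, 0 of 3 cap chaperones and 0 of 3 immunoproteasome genes. The CCAAT letters were in 32.5% against 37.4%, and the longer GATTGG, which contains the same box on the other strand, in 20% against 16.1%. Of the interferon-type letters, GAAANNGAA was in 15% against 8.56% and TTCNNNGAA in 5% against 8.3%. GAAANNGAA was in 0 of 3 immunoproteasome and 2 of 4 constitutive beta ring genes, and TTCNNNGAA in 1 of 3 and 0 of 4. A match describes the letters only and says nothing of binding.

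The stretches below show the antioxidant core in capitals in 4 genes that rose with SCI in saline muscle, each 5′ to 3′ on the gene's strand. They lie at chr14:54618016-54618065 for Psmb5 (minus strand), chr11:70525307-70525356 for Psmb6, chr11:97703384-97703433 for Psmb3 and chr14:45329574-45329623 for Psmc6 (all plus), where the last has the core once on each strand.
Psmb5: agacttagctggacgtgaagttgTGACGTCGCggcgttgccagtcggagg
Psmb6: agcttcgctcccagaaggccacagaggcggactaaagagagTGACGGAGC
Psmb3: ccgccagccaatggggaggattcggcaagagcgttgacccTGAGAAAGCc
Psmc6: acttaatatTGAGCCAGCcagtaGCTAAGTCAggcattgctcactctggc
In Psmb5, Psmb6 and Psmb3 the core begins at -47, -9 and -10 relative to the start, and in Psmc6 it lies farther out, at -241 and -227.

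The immunoproteasome promoters are shown for contrast. In Psmb8 (chr17:34198075-34198124, plus strand) the capitals mark TTCNNNGAA, and in Psmb9 (chr17:34187331-34187555, minus strand) the stretch is the whole 225-base interval to the start of Tap1, which is transcribed in the other direction, with GATTGG in capitals.
Psmb8: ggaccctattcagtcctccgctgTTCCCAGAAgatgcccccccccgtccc
Psmb9: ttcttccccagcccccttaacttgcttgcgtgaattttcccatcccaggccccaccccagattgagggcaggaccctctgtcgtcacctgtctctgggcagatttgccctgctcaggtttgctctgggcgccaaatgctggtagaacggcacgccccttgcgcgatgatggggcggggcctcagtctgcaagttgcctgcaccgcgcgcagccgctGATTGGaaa
Tap1 encodes a subunit of the peptide transporter of antigen presentation. Its probe was detected on all 7 cardiotoxin arrays, on 1 of 4 SCI+Saline and on 0 of 4 Sham+Saline arrays, so its saline levels lie at background and its log2 differences are no measured size. It was called higher with cardiotoxin in SCI mice (limma adjusted p = 0.000202) and in sham mice, there at least 1.70-fold (limma adjusted p = 7.87e-05). That bound sets the mean of the Sham+CDTX arrays against the lowest signal of a detected probe on each Sham+Saline array.

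Cardiotoxin in sham mice gave a mixed picture in the core and cap. In Sham+CDTX against Sham+Saline, 7 of the 27 genes were higher and 4 lower, with a median log2 fold change of 0.20. Over all proteasome probes, 16 of 58 (27.6%) were called higher, where 23.1% of all probes were, and 9 of 58 (15.5%) lower, where 25.8% of all probes were. With all 16 arrays and the probe disagreement score as a covariate, 6 probes (10.3%) were higher and 2 lower, where 11.2% and 9.49% of all probes were; of the 27 core and cap genes 1 was then higher and 2 lower, and their median was -0.15. Under scaling of each array to its median in place of quantile normalisation, 34 were higher and 1 lower, while the median of all probes shifted to 0.32 and 45.4% of all probes were called higher and 7.94% lower; 16 of the 27 genes were then higher and none lower, with a median of 0.53. A direction for the core and cap in this comparison therefore depended on the setting.

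Of the 3 highest and 3 lowest called genes here, Psmb9 (described above) kept its direction and its call with the score and whichever array was left out. Psme3 was 3.17-fold higher in Sham+CDTX than in Sham+Saline (log2 1.66, SE 0.14, limma adjusted p = 4.87e-08) but gave -0.23 with the score. Psma4, an alpha ring subunit, was at 10.56, 10.66, 10.99 and 10.88 in Sham+Saline, 12.07, 12.18, 11.80 and 11.85 in SCI+Saline, 11.93, 12.07, 12.07 and 12.03 in Sham+CDTX, and 11.48, 11.13 and 11.06 in SCI+CDTX. Its Sham+CDTX arrays overlapped SCI+Saline, which no other alpha ring gene showed, and the difference from Sham+Saline (log2 1.25, SE 0.14, limma adjusted p = 9.51e-07) became -0.77 with the score.

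Psmg2, a chaperone of core assembly, was at 9.30, 9.23, 8.62 and 8.96 in Sham+Saline, 9.10, 9.53, 9.15 and 9.21 in SCI+Saline, 7.72, 7.33, 7.72 and 7.65 in Sham+CDTX, and 8.73, 8.75 and 8.70 in SCI+CDTX. It was lowest in Sham+CDTX, with no overlap (log2 -1.42, SE 0.16, limma adjusted p = 7.23e-07), while its other probe gave 0.11 (limma adjusted p = 0.559). The score brought the brightest Psmg2 probe to -0.03, which did not pass (limma adjusted p = 0.977). Psmf1, the inhibitor, was at 8.47, 8.69, 8.51 and 8.75 in Sham+Saline, 8.43, 8.96, 9.06 and 8.63 in SCI+Saline, 8.04, 7.59, 7.64 and 7.61 in Sham+CDTX, and 8.88, 9.28 and 9.02 in SCI+CDTX. Sham+CDTX was again the lowest group (log2 -0.88, SE 0.16, limma adjusted p = 0.00016), whereas its other probe gave -0.13 and the score turned the value to 1.00.

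Psmd7, a lid subunit, is the clearest case of disagreement between probes. The parts of the transcript that the probes read are shown by the first 30 bases of each, at transcript position 223 and 1532 in the array's annotation.
Psmd7, position 223: ccagaagcgggtagttggtgtgcttttggg
Psmd7, position 1532: cttagggcttggggtccaaggccatgtatt
The brighter probe, at 1532, was at 10.79, 10.67, 10.96 and 10.79 in Sham+Saline, 10.99, 11.12, 11.48 and 11.07 in SCI+Saline, 10.10, 10.09, 10.14 and 10.11 in Sham+CDTX, and 10.88, 10.70 and 11.08 in SCI+CDTX. The probe at 223 was at 9.42, 8.95, 9.48 and 9.21, then 9.97, 9.90, 9.87 and 9.62, then 9.38, 9.85, 9.67 and 9.90, and then 9.52, 8.91 and 9.06, in the same order of groups. The first put Sham+CDTX below every other array and the second put it above most Sham+Saline arrays. Their log2 fold changes for cardiotoxin in sham mice were -0.69 (limma adjusted p = 0.000305) and 0.43 (limma adjusted p = 0.0392), called in opposite directions. The score brought the brighter probe to -0.09, which did not pass (limma adjusted p = 0.886).

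SCI in cardiotoxin muscle (SCI+CDTX minus Sham+CDTX) also uses Sham+CDTX. In the core and cap, 10 of 27 genes were higher and 2 lower, with a median of 0.26. Over all proteasome probes, 16 of 58 (27.6%) were called higher and 5 of 58 (8.62%) lower, where 14.9% of all probes were called in each direction. With the score, 7 of 58 (12.1%) were higher and none lower, where 1.23% of all probes were higher and 0.522% lower. In the core and cap 5 of 27 were then higher and none lower, with log2 fold changes from 0.02 to 2.49, and the median of the 27 genes was above 0 in every setting (0.21 to 0.67). Psmd8, a lid subunit, was at 10.98, 10.86, 10.69 and 10.95 in Sham+Saline, 11.98, 12.35, 12.47 and 11.93 in SCI+Saline, 10.53, 10.14, 10.53 and 10.48 in Sham+CDTX, and 11.94, 11.52 and 11.93 in SCI+CDTX. Both SCI groups stood above both sham groups, by 2.59-fold in cardiotoxin muscle (log2 1.37, SE 0.17, limma adjusted p = 9.77e-06) and 2.48-fold in saline muscle (log2 1.31, SE 0.16, limma adjusted p = 4.94e-06). Psmc4, an ATPase of the cap, had the same order, at 11.11, 11.07, 10.92 and 11.03 in Sham+Saline, 12.50, 12.59, 12.99 and 12.39 in SCI+Saline, 10.71, 10.56, 10.79 and 10.59 in Sham+CDTX, and 12.15, 11.64 and 12.12 in SCI+CDTX. It differed by 2.48-fold in cardiotoxin muscle (log2 1.31, SE 0.16, limma adjusted p = 1.12e-05) and 3.00-fold in saline muscle (log2 1.58, SE 0.15, limma adjusted p = 3.8e-07). With the score, the log2 changes in cardiotoxin muscle were 0.94 for Psmd8 (limma adjusted p = 0.0817) and 0.80 for Psmc4 (limma adjusted p = 0.116). Neither passed. Psmf1 also had one of the highest changes (log2 1.34, SE 0.17, limma adjusted p = 1.61e-05), which the score turned to -0.20.

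The lowest called changes in that comparison were in Psme3 (log2 -1.60, SE 0.15, limma adjusted p = 8.37e-07), Psma4 (-0.80, SE 0.15, limma adjusted p = 0.000625) and Psmd9. Psmd9, a chaperone of the cap's base, was at 5.51, 5.69, 6.02 and 6.14 in Sham+Saline, 5.62, 6.14, 5.86 and 5.49 in SCI+Saline, 6.21, 5.99, 5.48 and 5.96 in Sham+CDTX, and 4.89, 5.51 and 5.34 in SCI+CDTX. The SCI+CDTX arrays were mostly the lowest but overlapped Sham+CDTX (log2 -0.67, SE 0.21, limma adjusted p = 0.022). That call was lost without SCI+CDTX replicate 1 or Sham+CDTX replicate 1, 2 or 4 (highest adjusted p 0.135), the other probe gave 0.03, and the score turned Psma4 to 0.81 and Psmd9 to 0.24. Psme3 was at -0.06 with the score and did not pass (limma adjusted p = 0.96).

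**Figure D4:**
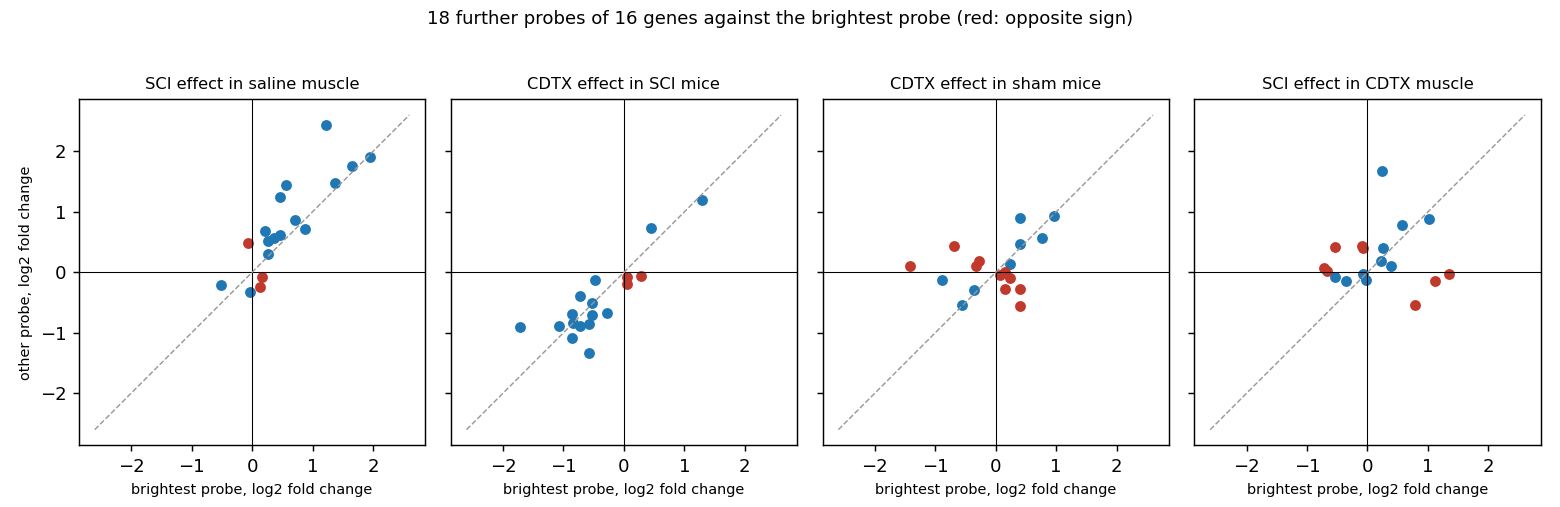
Log2 fold change of 18 further probes of 16 proteasome genes (vertical) against that of the brightest probe of the same gene (horizontal) in 4 comparisons; red points have opposite signs and the dashed line marks equality. Signs are the same for 15 of 18 probes in each of the 2 left panels, and for 9 and 10 of 18 in the 2 panels that involve Sham+CDTX.

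The probes of a gene gave the same sign as its called brightest probe in 11 of 11 cases for SCI in saline muscle and 13 of 13 for cardiotoxin in SCI mice. In the comparisons with Sham+CDTX this held in 4 of 6 cases (cardiotoxin in sham mice) and 3 of 8 (SCI in cardiotoxin muscle).

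The interaction, which tests whether cardiotoxin acted differently in SCI and sham mice, was negative for 25 of 58 proteasome probes (43.1%), where 11.6% of all probes were, and positive for 4 of 58 (6.9%), where 12% of all probes were. In the core and cap, 16 of 27 genes were negative and none positive, with a median of -0.96. The 3 lowest values were in Psmd6 (-2.67, SE 0.38, limma adjusted p = 8.33e-05), Psme3 (-2.10, SE 0.21, limma adjusted p = 4.53e-06) and Psma4 (-2.0, SE 0.21, limma adjusted p = 6.89e-06). The 3 highest were in Psmf1 (1.17, SE 0.24, limma adjusted p = 0.00144), Psmb10 (0.90) and Psmg2 (0.90, SE 0.23, limma adjusted p = 0.00875). The interaction uses Sham+CDTX, and with all 16 arrays and the score no proteasome probe was called in either direction, where 0.0602% of all probes were positive and 0.227% negative. Psmd6 then gave 0.89, Psmf1 -0.53, Psmb10 -0.90 and Psmg2 -0.37. Under median scaling 41 probes were negative and none positive, and the median of all probes shifted to -0.24.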

How the data were processed

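Muscle RNA of 16 samples was measured, 1 array each. The authors deposited mean bead intensity per probe and array with no normalization, and a detection p-value for each, per the file headers. They exported it with GenomeStudio version 2011.1, per the submitters' processing notes. The authors' deposited table of group means holds intensity after average normalization and background subtraction, with a difference p-value against SCI+CDTX, per the file headers. Whether that p-value is corrected was not given in the sources used here.

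Intensities of 15 arrays were background-corrected from the detection p-values (neqc, limma 3.58.1, R 4.3.3; tables read with data.table version 1.17.8), given an offset of 16, quantile normalized and set to log2. The offset understates fold changes of dim probes. A probe was tested if 3 or more arrays had its detection p below 0.05, which left 14763. A model of the 4 groups was fitted to all of them with lmFit and eBayes, and p-values were Benjamini-Hochberg adjusted over all 14763 probes. The labels do not say whether replicates are separate animals, so p-values measure the spread between these samples. The number of arrays limits the precision. No 2 arrays were identical (highest correlation 0.994).

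The probe disagreement score is the first component of the differences between probes of 1 gene. It held 33.1% of their variance. It entered the alternative fit as a covariate over 16 arrays. Within groups it varied most through SCI+CDTX replicate 2, so that fit leans largely on that array.

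The members and gene lists were chosen with earlier results of these data known. Values in every array are given for the 3 highest and 3 lowest called genes of each comparison, the catalytic subunits and the activators. Other members are given by role, and at most 5 genes of each further list are named by size of change. Nfe2l1 and Tap1 are named besides these. The fit was tested on simulated data. Alternatives tried were other normalizations, filters, sets of arrays, moderation of the spread, a replicate block, single arrays left out and the authors' deposited table.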

Additional observations from a re-analysis of the deposited data

Results flagged for a closer look

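In 63 groups of 4 arrays (21 genes in 3 groups), 3 arrays lay far from the rest of their group, where chance gives about 1 in 20. Psmb9 was 7.51 in Sham+Saline replicate 4, against 6.63 to 6.74 in the other Sham+Saline arrays. Psmf1 was 8.04 in Sham+CDTX replicate 1, against 7.59 to 7.64. Psmd8 was 10.14 in Sham+CDTX replicate 2, against 10.48 to 10.53.

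The effect of cardiotoxin differed between SCI and sham mice in 10 of the 21 named genes by the interaction term (log2, SCI minus sham). It was lower in SCI mice for Psmd6 (-2.67), Psme3 (-2.10), Psma4 (-2.0), Psmc6 (-1.49), Psmb3 (-1.15), Psmb5 (-1.11) and Psmb7 (-1.01). It was higher in SCI mice for Psmf1 (1.17), Psmb10 (0.90) and Psmg2 (0.90). With all 16 arrays and the probe disagreement score as a covariate, none of these was called. Some of the 21 genes were named because their called interaction was among the 3 highest or 3 lowest. The count of 10 was therefore partly set by that choice and is no separate result. Of all probes, 12% were positive and 11.6% negative.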

How the results depend on the processing

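The rise of proteasome probes with SCI in saline muscle and their fall with cardiotoxin in SCI mice kept their direction under every alternative run, with 37 to 47 probes higher in the first and 22 to 39 lower in the second; the 22 comes from the authors' deposited table. With all 16 arrays, cardiotoxin in sham mice gave 10 higher, SCI in cardiotoxin muscle 2 lower, SCI in saline muscle 0 lower and the interaction 0 positive. With the probe disagreement score as well, cardiotoxin in sham mice gave 6 higher and 2 lower, SCI in cardiotoxin muscle 7 higher and 0 lower, SCI in saline muscle 0 lower, and the interaction 0 in both directions. With median scaling, cardiotoxin in sham mice gave 34 higher and 1 lower, SCI in saline muscle 0 lower, and the interaction 0 positive and 41 negative; all probes then split 30% higher and 4.71% lower for SCI in saline muscle, 28.2% and 15.2% for cardiotoxin in SCI mice, and 5.7% and 26.4% for the interaction, and the median of all probes shifted to 0.17 for SCI in saline muscle. With only the groups compared, SCI in cardiotoxin muscle gave 8 lower and SCI in saline muscle 0 lower. Leaving out 1 array gave 3 to 7 lower for SCI in cardiotoxin muscle (3 without SCI+CDTX replicate 3 or Sham+CDTX replicate 2 or 4) and 0 to 1 lower for SCI in saline muscle. Normalizing each slide separately gave 6 higher and 37 lower for cardiotoxin in SCI mice, as in the report. Same-numbered samples share only a number (correlations of -0.271 to 0.377); with the replicate block, 6 probes were higher and 32 lower for cardiotoxin in SCI mice, 15 and 8 for cardiotoxin in sham mice, 17 and 5 for SCI in cardiotoxin muscle, 40 and 1 for SCI in saline muscle, and 4 positive and 25 negative for the interaction. Of 5000 values of single genes under the alternatives, 4617 kept side and direction, 96 gained and 218 lost the threshold, 34 reversed, and 35 from the authors' deposited table, which has no test against Sham+Saline or between the sham groups, moved by more than the spread between replicates. With the score, cardiotoxin in sham mice reversed to -0.77 (Psma4), -0.03 (Psmb1), -0.07 (Psmb3), -0.15 (Psmb5), 0.30 (Psmc4), -1.47 (Psmd1), 1.07 (Psmd13), -0.84 (Psmd14), 0.23 (Psmd4), 0.30 (Psmd5), -2.90 (Psmd6), 0.11 (Psmd8), -0.23 (Psme3) and 1.00 (Psmf1). SCI in cardiotoxin muscle reversed with it to 0.81 (Psma4), 0.12 (Psmb7), 1.26 (Psmd1), 1.39 (Psmd14), -0.26 (Psmd5), 2.49 (Psmd6), 0.24 (Psmd9), -0.20 (Psmf1) and -0.03 (Psmg2). The interaction reversed with it to -0.90 (Psmb10), 0.39 (Psmc6), 0.20 (Psmd1), 0.46 (Psmd11), -0.29 (Psmd5), 0.89 (Psmd6), -0.53 (Psmf1) and -0.37 (Psmg2). With median scaling the reversals were Psmd5 at 0.11 (cardiotoxin in sham mice), Psme1 at 0.47 (SCI in saline muscle) and Psmd8 at -0.67 (interaction). The cause was not tested. Dim probes such as Psmc6, Psmd2 and Psmb8 lie near background, where fold changes are compressed.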
